A study of Mus musculus with 12 samples.

Results

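To follow the sugar-handling enzymes of microglial cells through oxygen-glucose deprivation and reoxygenation (OGD/R), the genes encoding glycolysis, lactate and pentose phosphate enzymes were examined, together with glucose and lactate transporters and glycogen enzymes. The 36 genes were taken from the count table by their names, among 21834 protein-coding genes in all. They comprised 2 glucose transporters, 11 genes of upper glycolysis, 6 of lower glycolysis, 5 of lactate and pyruvate handling, 3 of the oxidative and 4 of the non-oxidative pentose phosphate branch, and 5 of glycogen metabolism. After a filter on low counts, 33 of the 36 were tested, among 11626 tested genes. The 3 others were Slc2a3, Ldhb and Pygl.

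RNA sequencing was carried out on BV2 cells, an immortalised mouse microglial line, in 4 groups of 3 libraries each. In shCtrl-CTRL, cells with a stably integrated control short hairpin RNA were left untreated. In shCtrl-OGDR, cells titled as the same line were held for 4 h without glucose at low oxygen. They were then returned to normal medium and oxygen for 12 h, both times as the labels give them. The study's methods give a longer reoxygenation for its OGD/R model, so the time behind these libraries is uncertain. In shAnxa2-CTRL and shAnxa2-OGDR, a line with a hairpin against Anxa2, which encodes annexin A2, a calcium-dependent membrane-binding protein, was left untreated or given the same exposure. All 4 groups therefore carried an integrated lentiviral hairpin vector and had been through puromycin selection. By the titles, each genotype was represented by 1 stable line and the knockdown by 1 hairpin. An effect of Anxa2 and any other difference between the lines therefore cannot be told apart. Groups were read from the sample titles. The count columns name the control cells shCTL when untreated and shCTL1 when exposed, so their being the same line rests on the titles. Any difference between such control cells could not be told apart from OGD/R in shCtrl. The cell type label of 6 libraries went against their titles, naming shCtrl-OGDR as a knockdown and shAnxa2-CTRL as wild type. The treatment labels followed the titles in all 12 libraries. Every direction on OGD/R given here rests on those titles and labels, and Anxa2 was used here to check the line only. Were the treatments of shAnxa2-CTRL and shAnxa2-OGDR exchanged, every direction in that line would turn, the interactions would take other values and the opposition between lines would become a shared direction. Whether they were exchanged was not tested. Anxa2 was expressed at 165, 174 and 177 CPM (counts scaled to the size and composition of each library) in shCtrl-CTRL and at 251, 295 and 291 CPM in shCtrl-OGDR. It was at 35.0, 44.4 and 41.8 CPM in shAnxa2-CTRL and at 18.2, 20.1 and 20.6 CPM in shAnxa2-OGDR. All 6 shAnxa2 libraries thus lay below all 6 shCtrl libraries, as titled. On OGD/R as titled, Anxa2 was higher in shCtrl and lower in shAnxa2. The paper reports a rise of Anxa2 RNA in BV2 cells on OGD/R. The reason for the opposite direction in shAnxa2 was not tested.

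Libraries held 19521877 to 27288843 counts, with a median of 24531756. All 12 microglia and macrophage markers were tested, and their summed level was 1946 to 2131 CPM in shCtrl libraries and 1655 to 1770 CPM in shAnxa2 libraries. The part of this gap in the differences between lines was not tested. Summed markers reached at most 0.970 CPM for 5 astrocyte genes, 1.33 CPM for 5 neuronal genes, 6.61 CPM for 4 oligodendrocyte genes and 2.09 CPM for 3 endothelial genes. Aqp4, Snap25, Syt1 and Mog were at 0 counts in every library.

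Glycolysis splits a molecule of glucose into pyruvate in the cytosol, with a net gain of ATP and without oxygen. When oxygen is short, or when microglia are activated, pyruvate is reduced to lactate, which regenerates NAD+ and leaves the cell through monocarboxylate transporters, while pyruvate dehydrogenase kinases keep pyruvate out of the mitochondria. The pentose phosphate pathway branches off at glucose 6-phosphate. Its oxidative steps make NADPH, which supplies glutathione reduction and the phagocyte NADPH oxidase, and its non-oxidative steps reshuffle sugars between pentoses and glycolytic intermediates. Glycogen is a glucose store built from glucose 1-phosphate. Many glycolytic genes are textbook targets of the hypoxia-inducible factors.

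The first comparison asked how OGD/R altered these genes in the control line. In shCtrl, glycolytic genes rose together. Of 17 glycolytic members, 15 rose, 1 fell (Pfkfb3) and 1 did not pass the test (Hk2), with a median log2 fold change of 0.37. The largest rises were those of Eno2, the neuronal-type enolase, at 1.38 on the log2 scale, and of Aldoc, a minor aldolase, at 0.97. Over all 33 tested members, 21 rose, 6 fell and 6 did not pass an adjusted p of 0.05 (edgeR quasi-likelihood test with Benjamini-Hochberg adjustment over all tested genes). Among all tested genes, 32.4% rose and 31.0% fell. By a rule that also required a 1.5-fold difference, 8 members rose and 1 fell, against 11.8% and 8.27% of all tested genes. The median over members was 0.27, beside 0.01 over all tested genes. In bulk RNA, a change in the share of cells using a gene and a change in its RNA per cell cannot be told apart.

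In the libraries titled shAnxa2, most of the genes differed between exposed and untreated cells in the direction opposite to that in shCtrl. Here 14 of the 17 glycolytic members fell, 1 rose (Pfkfb3) and 2 did not pass the test (Hk2 and Hk3), with a median of -0.30. Over the 33 members, 21 fell, 4 rose and 8 did not pass, where 26.8% of all tested genes fell and 28.2% rose. At 1.5-fold or more, 9 members fell and 1 rose, against 7.88% and 4.17% of all tested genes. The 4 members that rose were Pfkfb3, Slc16a1, Pgd and Rpia.

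**Figure D1:**
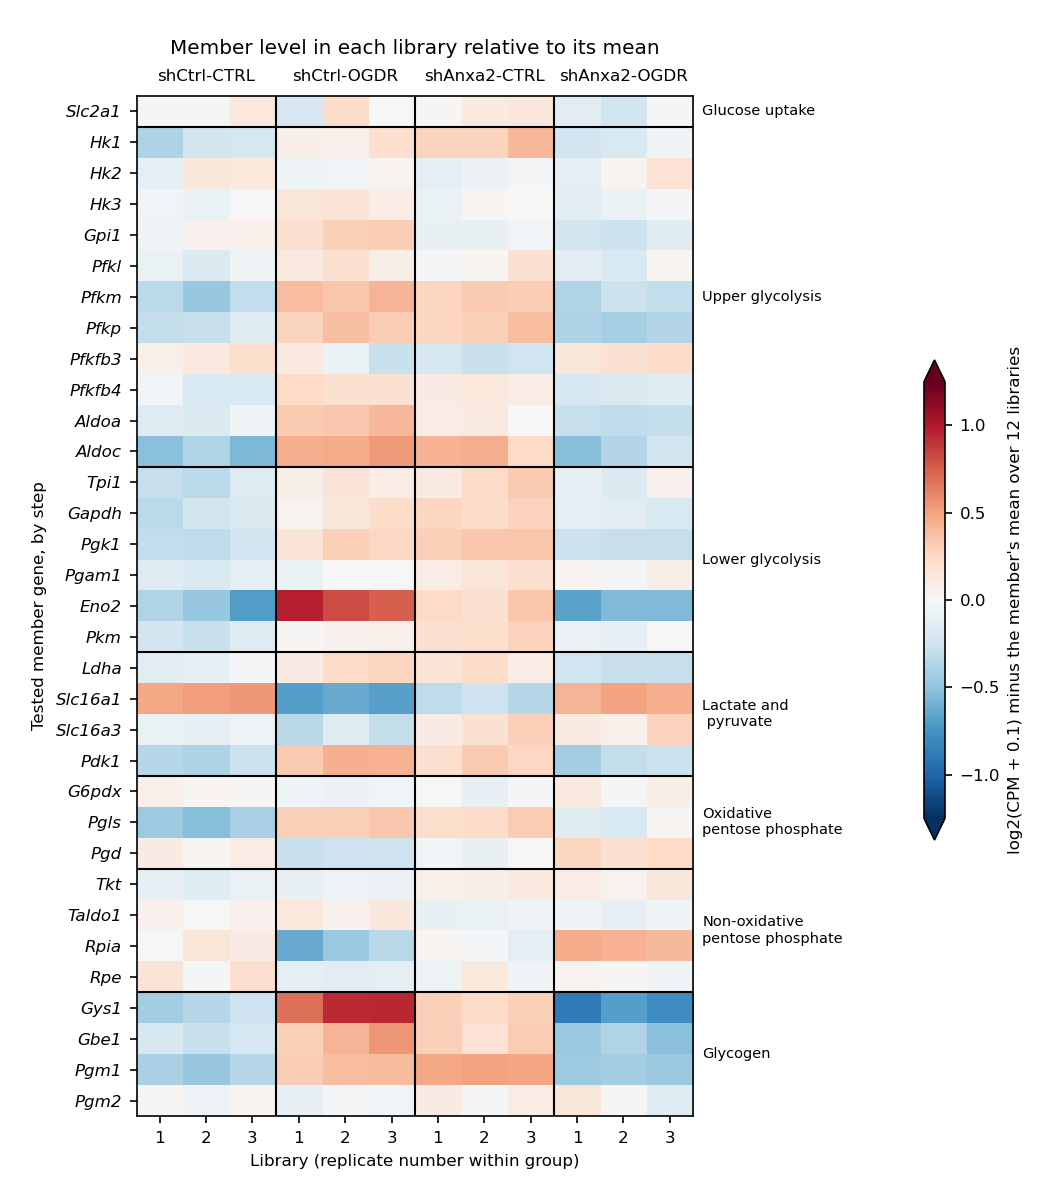
Level of each of the 33 tested members (rows, by step) in each of the 12 libraries (columns, by group), as log2(CPM + 0.1) minus the mean of that member over the 12 libraries. Most glycolytic and glycogen rows are red in shCtrl-OGDR and shAnxa2-CTRL and blue in shCtrl-CTRL and shAnxa2-OGDR, Slc16a1 shows the reverse, and Tkt, Taldo1 and Pgm2 stay pale.

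The difference between both responses was tested as an interaction, the log2 fold change on OGD/R in shAnxa2 minus that in shCtrl. It was below 0 for 21 members, above 0 for 6 and not called for 6. Among all tested genes, 35.1% had an interaction below 0 and 34.9% above 0. At 1.5-fold or more, 16 members lay below 0 and 4 above 0, against 22.0% and 19.8% of all tested genes. Of the glycolytic members, 15 had an interaction below 0 and only Pfkfb3 had one above 0. No member passed the test in both lines with the same sign, and 24 members passed in both lines with opposite signs. Across all tested genes, 5165 of the 5239 called in both lines also had opposite signs, so the members shared this opposition with nearly all genes called in both lines. An exchange of treatment between the shAnxa2 groups would turn the opposition into a shared direction, and it was not tested.

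**Figure D2:**
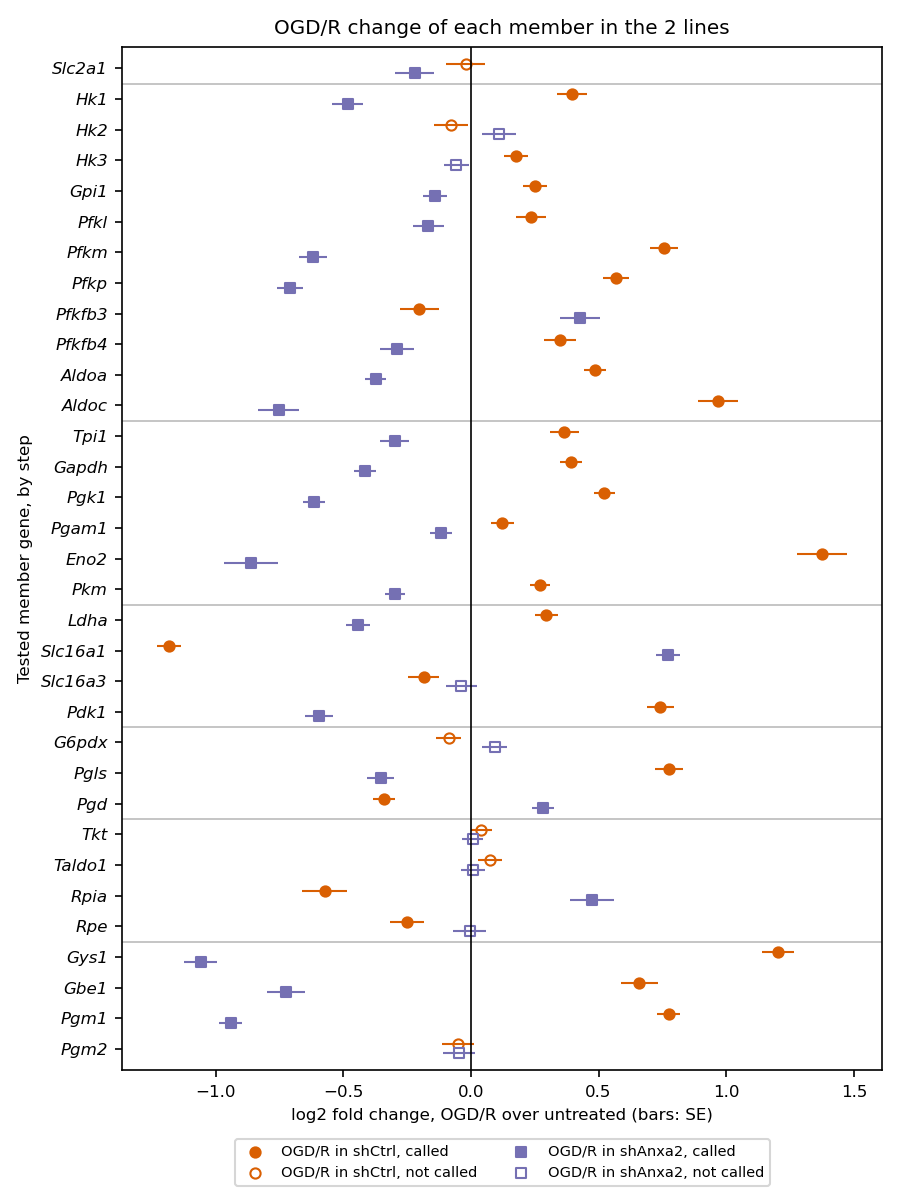
Log2 fold change of OGD/R over untreated for each tested member (rows, by step) in shCtrl (circles) and shAnxa2 (squares), with bars for the SE and filled symbols for an adjusted p under 0.05. Eno2, at 1.38 in shCtrl and -0.86 in shAnxa2, and Slc16a1, at -1.18 and 0.77, lie farthest apart with Gys1.

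Glycolytic and pentose phosphate steps were then set side by side. Of the 7 pentose phosphate members, 1 rose, 3 fell and 3 did not pass in shCtrl on OGD/R, with a median of -0.09. Among all tested genes, 32.4% rose and 31.0% fell there. In shAnxa2, 2 rose, 1 fell and 4 did not pass, with a median of 0.01, where 28.2% of all tested genes rose and 26.8% fell. The interactions of the pentose phosphate members were above 0 for 4, below 0 for 1 (Pgls) and not called for 2. Among all tested genes, 34.9% lay above 0 and 35.1% below. With so few members, nothing particular to the pentose phosphate list is read from these counts. The median interaction was 0.18, where the glycolytic median was -0.66. The summed level of the 17 glycolytic members was 17370, 17570 and 18690 CPM in shCtrl-CTRL and 22130, 23100 and 23640 CPM in shCtrl-OGDR. It was 23230, 23460 and 24070 CPM in shAnxa2-CTRL and 18510, 18200 and 18910 CPM in shAnxa2-OGDR. The exposed and untreated libraries of a line did not overlap, and the order was reversed between lines. The pentose phosphate sum ran from 2625 to 2657 CPM in shCtrl-OGDR and from 2654 to 2772 CPM in shCtrl-CTRL, which touched, and from 2788 to 2905 CPM in shAnxa2-CTRL against 2901 to 3070 CPM in shAnxa2-OGDR. As a description, the mean log2 level of the glycolytic members exceeded that of the pentose phosphate members by 0.70 ± 0.03 (SD, n = 3) in shCtrl-CTRL, by 1.16 ± 0.02 (SD, n = 3) in shCtrl-OGDR, by 0.99 ± 0.02 (SD, n = 3) in shAnxa2-CTRL and by 0.59 ± 0.05 (SD, n = 3) in shAnxa2-OGDR. Each member counts equally in these means, whereas the abundant genes of each list weigh most in the sums. Means and sums share the libraries, and no test was made on them.

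**Figure D3:**
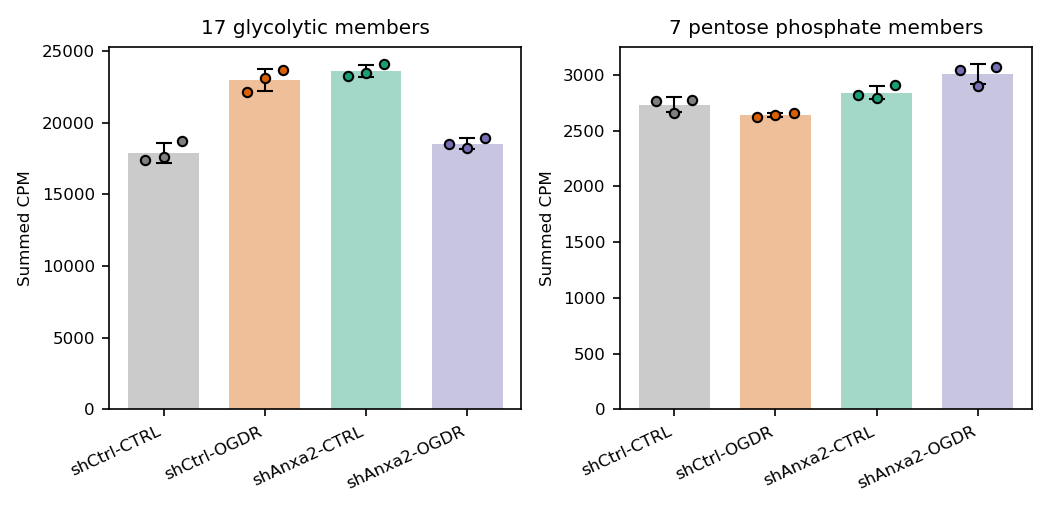
Summed CPM of the 17 glycolytic members (left) and the 7 pentose phosphate members (right) in each group, with points for the 3 libraries, bars for the mean and error bars for the SD. Glycolytic sums of shCtrl-OGDR and shAnxa2-CTRL lie between 22130 and 24070 CPM and those of the other 2 groups between 17370 and 18910 CPM, while all pentose phosphate sums lie between 2625 and 3070 CPM.

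In upper glycolysis, the hexokinases phosphorylate glucose on entry. Hk1, the widely expressed mitochondrial form, stood at 220, 245 and 246 CPM in shCtrl-CTRL and at 303, 301 and 333 CPM in shCtrl-OGDR. It stood at 348, 348 and 384 CPM in shAnxa2-CTRL and at 244, 252 and 276 CPM in shAnxa2-OGDR. The libraries did not overlap in either line, and Hk1 rose by 0.40 (SE 0.06, adjusted p = 2.83e-06) in shCtrl and fell by 0.48 (SE 0.06, adjusted p = 2.86e-07) in shAnxa2. Hk2, the inducible form, was at 266, 318 and 315 CPM untreated and 278, 281 and 295 CPM exposed in shCtrl. In shAnxa2 it was at 264.5, 273 and 282 CPM untreated and 264.6, 294.5 and 326 CPM exposed. These ranges overlapped, its fold changes were -0.08 (SE 0.07) and 0.11 (SE 0.07), and its interaction of 0.19 had an adjusted p of 0.0826. Hk3, the hexokinase of myeloid cells, was at 318, 309 and 329 CPM in shCtrl-CTRL and at 363, 366 and 350 CPM in shCtrl-OGDR. It rose by 0.18 (adjusted p = 0.00273), whereas in shAnxa2, at 309.5, 332.5 and 325 CPM untreated and 299, 308 and 323 CPM exposed, its change of -0.06 was not called. Per kilobase of exon, Hk3 was the most abundant of the 3 in shCtrl-CTRL, at 86.5 ± 2.7 CPM per kb (SD, n = 3), above Hk2 at 50.2 ± 4.9 (SD, n = 3) and Hk1 at 27.8 ± 1.7 (SD, n = 3), and this order of means held in all 4 groups. Hk2 and Hk1 were closest in shAnxa2-CTRL, at 45.8 ± 1.5 and 42.2 ± 2.5 CPM per kb (SD, n = 3), which lay within their spread.

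Phosphofructokinase catalyses the committing step of glycolysis, and its 3 subunit genes moved together by different amounts. Pfkm, the muscle-type subunit, measured 53.9, 49.4 and 55.2 CPM in shCtrl-CTRL and 89.4, 86.7 and 91.7 CPM in shCtrl-OGDR, a rise of 0.76 (SE 0.05, adjusted p = 1.17e-11). It measured 82.6, 86.1 and 84.7 CPM in shAnxa2-CTRL and 52.7, 56.8 and 55.4 CPM in shAnxa2-OGDR, a fall of 0.62 (SE 0.05, adjusted p = 1.40e-09). The libraries of exposed knockdown cells overlapped those of untreated control cells. Pfkp, the platelet-type subunit, was at 347, 349 and 381 CPM untreated and 516, 553 and 528 CPM exposed in shCtrl, and at 515, 523 and 559 CPM untreated and 325, 320 and 332 CPM exposed in shAnxa2. Its mean was 532 CPM in both high groups. Pfkl, the liver-type subunit, changed least, from 255.6, 240.2 and 259.9 CPM to 293.6, 310.2 and 285.2 CPM in shCtrl, a rise of 0.24 (SE 0.06), and from 268.3, 275.4 and 307.3 CPM to 245.1, 237.1 and 276.5 CPM in shAnxa2, where its fall of 0.17 was called although the libraries overlapped. That call for Pfkl was lost on leaving out any of 3 shAnxa2 libraries, at -0.10 without shAnxa2-CTRL replicate 3, -0.14 without shAnxa2-OGDR replicate 1 and -0.12 without shAnxa2-OGDR replicate 2.

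Pfkfb3 and Pfkfb4 encode bifunctional enzymes that set fructose 2,6-bisphosphate, the main activator of phosphofructokinase, and they moved in opposite directions. Pfkfb3 was at 38.1, 39.6 and 42.5 CPM in shCtrl-CTRL and 39.8, 34.4 and 30.1 CPM in shCtrl-OGDR. It was at 31.8, 30.2 and 30.7 CPM in shAnxa2-CTRL and 40.2, 41.6 and 42.9 CPM in shAnxa2-OGDR. The rise in shAnxa2 of 0.43 (SE 0.08, adjusted p = 6.40e-05) was free of overlap, whereas the fall in shCtrl of 0.20 (SE 0.08, adjusted p = 0.0247) was not, and was lost without shCtrl-CTRL replicate 3 (-0.16), shCtrl-OGDR replicate 2 (-0.19) or shCtrl-OGDR replicate 3 (-0.11). Pfkfb4 was at 29.9, 26.8 and 26.8 CPM untreated and 36.3, 35.2 and 34.8 CPM exposed in shCtrl, and at 32.8, 33.4 and 32.6 CPM untreated and 26.4, 26.9 and 27.6 CPM exposed in shAnxa2. It rose by 0.35 (SE 0.06) in shCtrl and fell by 0.29 (SE 0.07) in shAnxa2.

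The aldolases split fructose 1,6-bisphosphate. Aldoc was at 19.6, 21.8 and 19.2 CPM in shCtrl-CTRL and 38.8, 38.9 and 41.0 CPM in shCtrl-OGDR, a rise of 0.97 (SE 0.08, adjusted p = 1.58e-10). In the knockdown line it was at 38.1, 38.8 and 33.6 CPM untreated and 19.5, 21.8 and 24.1 CPM exposed, a fall of 0.75 (SE 0.08, adjusted p = 3.61e-08). Aldoa, the main aldolase at 1036 ± 48 CPM per kb against 6.19 ± 0.43 CPM per kb for Aldoc in shCtrl-CTRL (SD, n = 3), rose by 0.49 (SE 0.04) and fell by 0.37 (SE 0.04) in the 2 lines. The table holds a second row named Aldoa with 23 to 68 counts per library, against 52654 to 108630 in the row used. Gpi1, which interconverts glucose 6-phosphate and fructose 6-phosphate, rose by 0.25 (SE 0.05) in shCtrl and fell by 0.14 (SE 0.05) in shAnxa2, and the latter call was lost without shAnxa2-OGDR replicate 2 (-0.11).

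In lower glycolysis, which harvests ATP and NADH, all 6 members rose in shCtrl and all 6 fell in shAnxa2. Eno2 was at 8.98, 8.39 and 7.17 CPM in shCtrl-CTRL and 23.1, 20.7 and 19.7 CPM in shCtrl-OGDR, a rise of 1.38 (SE 0.10, adjusted p = 1.57e-11). It was at 13.9, 13.3 and 14.9 CPM in shAnxa2-CTRL and 7.30, 7.95 and 7.96 CPM in shAnxa2-OGDR, a fall of 0.86 (SE 0.11, adjusted p = 3.06e-07). The shCtrl-OGDR libraries were the highest of the 12, and the shAnxa2-CTRL libraries lay between these and the other 6. Pgk1, phosphoglycerate kinase and the first ATP-yielding step, was at 1197, 1187 and 1256 CPM untreated and 1650, 1812 and 1769 CPM exposed in shCtrl, and at 1815, 1883 and 1876 CPM untreated and 1228, 1207 and 1208 CPM exposed in shAnxa2. It rose by 0.52 (SE 0.04) and fell by 0.61 (SE 0.04). Tpi1, Gapdh and Pkm, which encode triosephosphate isomerase, glyceraldehyde 3-phosphate dehydrogenase and pyruvate kinase, rose by 0.27 to 0.39 on the log2 scale in shCtrl. Gapdh, often used as an internal reference in expression work, averaged 4549 ± 247 CPM untreated and 5973 ± 383 CPM exposed in shCtrl, and 6504 ± 135 CPM untreated and 4881 ± 124 CPM exposed in shAnxa2 (SD, n = 3). It rose by 0.39 (SE 0.04, adjusted p = 3.00e-08) in shCtrl and fell by 0.41 (SE 0.04, adjusted p = 2.72e-08) in shAnxa2. Pgam1, phosphoglycerate mutase, moved least, by 0.12 (SE 0.04) and -0.12 (SE 0.04), and each of these calls was lost on leaving out any of 4 libraries. Without them its values ran from 0.10 to 0.12 in shCtrl (shCtrl-CTRL replicates 1 and 2, shCtrl-OGDR replicates 2 and 3) and from -0.12 to -0.09 in shAnxa2 (shAnxa2-CTRL replicates 2 and 3, shAnxa2-OGDR replicates 1 and 2). Several of these genes, Gapdh, Pgk1, Pgam1, Tpi1, Aldoa, Pkm and Ldha among them, have processed pseudogenes in the mouse genome, and how reads shared with these copies were counted is not given in the sources used here.

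**Figure D4:**
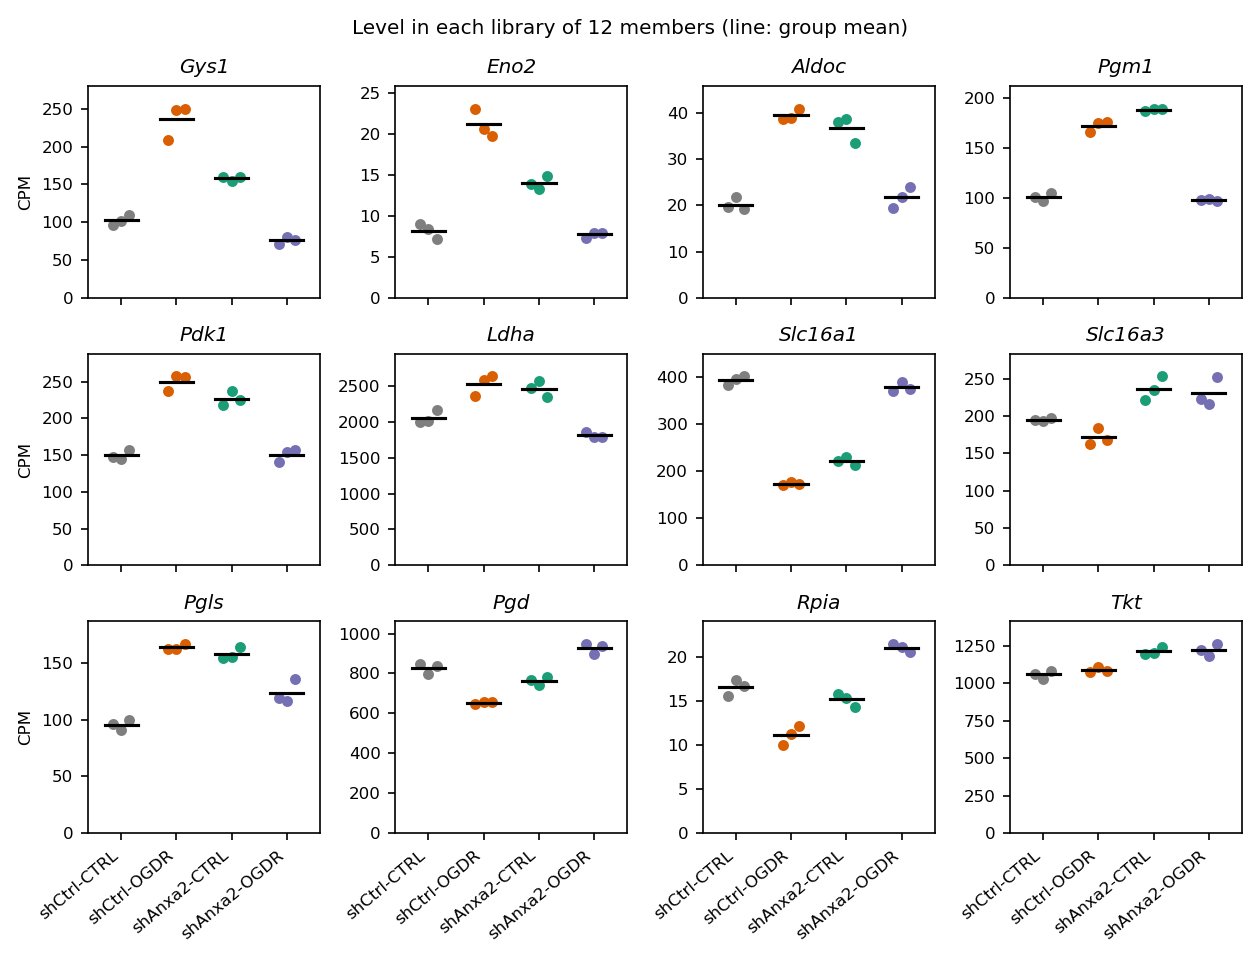
CPM in each library (points) and the group mean (line) for 12 members, with each vertical axis starting at 0. Gys1, Eno2, Aldoc, Pgm1, Pdk1 and Ldha are higher in shCtrl-OGDR and shAnxa2-CTRL than in the other 2 groups, Slc16a1 and Pgd are lower there, and Tkt is higher in both shAnxa2 groups.

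Lactate handling divided by gene. Ldha, the lactate dehydrogenase subunit that favours lactate formation, was at 2000, 2009 and 2161 CPM in shCtrl-CTRL and 2358, 2583 and 2632 CPM in shCtrl-OGDR, a rise of 0.30 (SE 0.05, adjusted p = 5.13e-06). It was at 2469, 2566 and 2343 CPM in shAnxa2-CTRL and 1850, 1793 and 1790 CPM in shAnxa2-OGDR, a fall of 0.44 (SE 0.05, adjusted p = 2.32e-08). Ldhb, the partner subunit, had 0 counts in every library, which allows at most 3 counts, or 0.154 CPM in the shallowest library, by counting error alone. Pdk1, a kinase that switches off pyruvate dehydrogenase, was at 148, 144 and 157 CPM untreated and 237, 257 and 256 CPM exposed in shCtrl, and at 218, 237 and 225 CPM untreated and 140, 154 and 157 CPM exposed in shAnxa2. It rose by 0.74 (SE 0.05, adjusted p = 1.47e-11) in shCtrl and fell by 0.60 (SE 0.05, adjusted p = 2.10e-09) in shAnxa2, without overlap.

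Slc16a1, which encodes the monocarboxylate transporter MCT1, ran against the enzymes. It was at 384, 396 and 402 CPM in shCtrl-CTRL and 170, 178 and 172 CPM in shCtrl-OGDR, a fall of 1.18 (SE 0.05, adjusted p = 5.17e-16). It was at 222, 230 and 214 CPM in shAnxa2-CTRL and 370, 391 and 376 CPM in shAnxa2-OGDR, a rise of 0.77 (SE 0.05, adjusted p = 3.33e-12). No libraries overlapped in either line, and its interaction of 1.96 (SE 0.07, adjusted p = 1.06e-17) had the smallest adjusted p of any member. Slc16a3, which encodes MCT4, the lactate exporter of glycolytic cells, did not follow. It was at 195, 193 and 198 CPM untreated and 163, 184 and 168 CPM exposed in shCtrl, and at 221, 235 and 253 CPM untreated and 223, 216 and 253 CPM exposed in shAnxa2. It fell by 0.19 (SE 0.06, adjusted p = 0.0103) in shCtrl, a call lost without shCtrl-OGDR replicate 1 (-0.15), and did not pass in shAnxa2 (-0.04, SE 0.06). Between lines it was higher in shAnxa2 both untreated, by 0.28 (SE 0.06), and after OGD/R, by 0.43 (SE 0.06).

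Slc2a1, which encodes the basal glucose transporter GLUT1, showed little change. It was at 139, 140 and 154 CPM untreated and 121, 165 and 139.7 CPM exposed in shCtrl, and at 142, 153 and 155 CPM untreated and 129, 119 and 139 CPM exposed in shAnxa2. Replicates were most spread in shCtrl-OGDR, and the change there was -0.02 (SE 0.08, adjusted p = 0.832). The fall in shAnxa2 of 0.22 (SE 0.08, adjusted p = 0.0183) was lost without shAnxa2-CTRL replicate 2 (-0.20), shAnxa2-CTRL replicate 3 (-0.20) or shAnxa2-OGDR replicate 2 (-0.16). Its interaction of -0.20 had an adjusted p of 0.103 and passed without shCtrl-OGDR replicate 1 (-0.30) or shAnxa2-OGDR replicate 3 (-0.25), whereas without shCtrl-OGDR replicate 2 it was -0.076. Without that library the difference between lines after OGD/R was -0.016. Slc2a3, which encodes the high-affinity transporter GLUT3, had 0 to 8 counts per library and was not tested.

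In the oxidative pentose phosphate branch, the 3 enzymes that act in sequence did not move together. G6pdx, glucose 6-phosphate dehydrogenase and the rate-limiting NADPH-producing step, was at 336, 328 and 325 CPM untreated and 309, 306 and 315 CPM exposed in shCtrl, and at 322, 301 and 319 CPM untreated and 351, 316 and 338 CPM exposed in shAnxa2. Neither change on OGD/R was called (-0.09, SE 0.05, and 0.09, SE 0.05), and the interaction of 0.18 (SE 0.07, adjusted p = 0.0231) was lost without shCtrl-OGDR replicate 2 (0.17), shAnxa2-CTRL replicate 2 (0.15) or shAnxa2-OGDR replicate 1 (0.14). Pgls, the lactonase of the second step, was at 96.3, 91.3 and 99.9 CPM in shCtrl-CTRL and 163, 163 and 167 CPM in shCtrl-OGDR, a rise of 0.78 (SE 0.05, adjusted p = 9.24e-12). It was at 155, 155 and 164 CPM in shAnxa2-CTRL and 119, 116 and 136 CPM in shAnxa2-OGDR, a fall of 0.35 (SE 0.05, adjusted p = 6.22e-06). Pgls therefore had the direction of the glycolytic genes. Pgd, 6-phosphogluconate dehydrogenase and the second NADPH-producing step, had the opposite one. It was at 847, 798 and 839 CPM untreated and 648, 656 and 657 CPM exposed in shCtrl, and at 768, 739.9 and 785 CPM untreated and 948, 899.8 and 938 CPM exposed in shAnxa2. It fell by 0.34 (SE 0.04, adjusted p = 2.43e-07) in shCtrl and rose by 0.28 (SE 0.04, adjusted p = 6.76e-06) in shAnxa2.

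Of the non-oxidative enzymes, both transferases were flat on OGD/R. Tkt, transketolase, was at 1065, 1031 and 1083 CPM untreated and 1076, 1108 and 1085 CPM exposed in shCtrl, and at 1197, 1201 and 1245 CPM untreated and 1220, 1182 and 1262 CPM exposed in shAnxa2. Its changes of 0.04 and 0.01 (SE 0.04 each) were not called, and it was higher in shAnxa2 than in shCtrl by 0.20 untreated and 0.16 after OGD/R (SE 0.04 each). Taldo1, transaldolase, was at 356, 341 and 355 CPM untreated and 375, 355 and 378 CPM exposed in shCtrl, and at 321, 324 and 331 CPM untreated and 333, 319 and 329.6 CPM exposed in shAnxa2. With changes of 0.07 (SE 0.05) and 0.01 (SE 0.05), it was not called in either line. Unlike Tkt, it was lower in shAnxa2 than in shCtrl, by 0.18 after OGD/R (SE 0.05, adjusted p = 0.00162). Untreated, it was lower by 0.11 (SE 0.05), a call that leaving out single libraries could remove.

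Rpia, ribose 5-phosphate isomerase, was at 15.6, 17.3 and 16.7 CPM in shCtrl-CTRL and 10.0, 11.3 and 12.2 CPM in shCtrl-OGDR, a fall of 0.57 (SE 0.09, adjusted p = 5.27e-06). It was at 15.8, 15.4 and 14.3 CPM in shAnxa2-CTRL and 21.4, 21.1 and 20.6 CPM in shAnxa2-OGDR, a rise of 0.48 (SE 0.09, adjusted p = 5.93e-05). A difference between the untreated lines was not detectable at this depth (-0.13, SE 0.09, adjusted p = 0.209). Rpe, ribulose 5-phosphate epimerase, was at 52.8, 46.9 and 54.8 CPM untreated and 43.4, 43.0 and 43.5 CPM exposed in shCtrl, and at 45.3, 51.7 and 45.8 CPM untreated and 48.5, 47.7 and 45.9 CPM exposed in shAnxa2. It fell by 0.25 (SE 0.06, adjusted p = 0.00170) in shCtrl and gave -0.01 (SE 0.07) in shAnxa2. The interaction of 0.25 for Rpe (adjusted p = 0.0217) was lost without shCtrl-CTRL replicate 3 (0.20), shAnxa2-CTRL replicate 1 (0.21) or shAnxa2-CTRL replicate 3 (0.22).

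Of the 4 tested glycogen members, 3 rose in shCtrl and the same 3 fell in shAnxa2, with medians of 0.72 and -0.83 over the 4. Gys1, glycogen synthase, was at 96.6, 101 and 109 CPM in shCtrl-CTRL and 209, 249 and 250.3 CPM in shCtrl-OGDR, a rise of 1.20 (SE 0.06, adjusted p = 5.34e-14). It was at 159.9, 154 and 160.1 CPM in shAnxa2-CTRL and 70.5, 81.0 and 76.0 CPM in shAnxa2-OGDR, a fall of 1.06 (SE 0.06, adjusted p = 4.09e-12). The 4 groups did not overlap for Gys1, and its interaction of -2.26 (SE 0.09, adjusted p = 1.79e-16) was the farthest from 0 of any member. Gbe1, the branching enzyme, was at 25.7, 24.4 and 25.3 CPM untreated and 36.2, 39.7 and 43.3 CPM exposed in shCtrl, and at 36.3, 33.5 and 36.8 CPM untreated and 21.4, 22.7 and 20.5 CPM exposed in shAnxa2. It rose by 0.66 (SE 0.07) and fell by 0.72 (SE 0.08). Pgm1, the phosphoglucomutase that links glucose 6-phosphate to glycogen, was at 101, 96.5 and 105 CPM untreated and 166, 175 and 176 CPM exposed in shCtrl, and at 187, 189 and 189 CPM untreated and 97.8, 99.2 and 97.1 CPM exposed in shAnxa2. It rose by 0.78 (SE 0.05) and fell by 0.94 (SE 0.05). Pgm2, a relative that acts mainly on pentose phosphates, was at 60.5, 58.1 and 60.9 CPM untreated and 55.9, 59.0 and 58.7 CPM exposed in shCtrl, and at 64.3, 58.9 and 63.8 CPM untreated and 66.4, 60.8 and 53.9 CPM exposed in shAnxa2. All groups overlapped for Pgm2, and none of its 4 comparisons was called. Pygl, the liver-type glycogen phosphorylase, had 5, 0 and 1 counts in shAnxa2-CTRL and 0 counts in the other 9 libraries, and was not tested.

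The lines were next compared within each condition, which asks what the knockdown line looked like before and after exposure. These comparisons share libraries with those above. Without OGD/R, 21 members were higher in shAnxa2 than in shCtrl, 4 were lower and 8 did not pass, against 29.5% and 29.7% of all tested genes. At 1.5-fold or more 9 were higher and 1 lower, against 9.77% and 5.81%. The glycolytic median was 0.46 with 13 of 17 higher, and the pentose phosphate median was -0.11 with 2 of 7 higher and 2 lower. Pgm1 (0.90, SE 0.05), Aldoc (0.86, SE 0.08), Eno2 (0.79, SE 0.10) and Pgls (0.72, SE 0.05) had the largest excess, and Slc16a1 (-0.83, SE 0.05) the largest deficit. Of the 25 calls, 3 were lost on leaving out 1 library. Pfkl lost its call without shCtrl-CTRL replicate 2 (0.14) or shAnxa2-CTRL replicate 3 (0.11). Pgd lost it without shCtrl-CTRL replicate 1 (-0.10) or 3 (-0.11) or shAnxa2-CTRL replicate 2 (-0.09). Taldo1 lost it without any of 6 libraries, replicates 1 and 3 of shCtrl-CTRL, 2 and 3 of shCtrl-OGDR and 1 and 2 of shAnxa2-CTRL, at -0.11 to -0.10. After OGD/R the picture was reversed, with 21 members lower in shAnxa2, 7 higher and 5 not called, against 34.2% lower and 33.8% higher among all tested genes. At 1.5-fold or more 9 were lower and 2 higher, against 14.4% and 11.8%. The glycolytic median was -0.29, with 14 of 17 lower, and the pentose phosphate median was 0.13, with 4 of 7 higher. Gys1 (-1.64, SE 0.06) and Eno2 (-1.45, SE 0.10) lay lowest, and Slc16a1 (1.13, SE 0.05) and Rpia (0.92, SE 0.09) highest. Of these 28 calls, 4 were lost on leaving out 1 library. Pfkfb3 lost its call without shCtrl-OGDR replicate 3 (0.17) and Tpi1 without shAnxa2-OGDR replicate 2 (-0.13). Pkm lost it without replicate 2 or 3 of shCtrl-OGDR (-0.10 and -0.09) or replicate 1 or 2 of shAnxa2-OGDR (-0.10 and -0.08). G6pdx, at 0.11 with an adjusted p of 0.0481, lost it without any of 9 libraries, at 0.075 to 0.122, and kept it only without shAnxa2-CTRL replicate 2 or 3 or shAnxa2-OGDR replicate 2.

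For most members, but not all, the 4 groups therefore fell into a high pair and a low pair. In 17 of the 33 members, all 6 libraries of shCtrl-OGDR and shAnxa2-CTRL lay above all 6 libraries of shCtrl-CTRL and shAnxa2-OGDR, an arrangement held by 16.1% of all tested genes. In 2 members, Slc16a1 and Pgd, all 6 lay below, against 15.9% of all tested genes. In the remaining members, among them all 4 non-oxidative pentose phosphate members, these sets of 6 libraries overlapped. The 17 included 11 glycolytic genes, Ldha, Pdk1, Gys1, Gbe1, Pgm1 and a single pentose phosphate gene, Pgls. The pairs that shared neither line nor condition were compared after these values had been seen. Between shAnxa2-OGDR and shCtrl-CTRL, 14 members differed and 19 did not pass, where 39.9% of all tested genes were called, and none of the 14 reached 1.5-fold, where 5.95% of all tested genes were called at that size. Gys1 (-0.43, SE 0.06) and Pgls (0.37, SE 0.05) lay farthest from 0, whereas Pgk1 gave 0.00 (SE 0.04) and Pdk1 0.01 (SE 0.05). Between shAnxa2-CTRL and shCtrl-OGDR, 17 members differed, where 44.1% of all tested genes were called. Of these only Eno2, lower in shAnxa2-CTRL by 0.59 on the log2 scale (SE 0.09), reached 1.5-fold, where 7.76% of all tested genes did, followed by Gys1 (-0.58, SE 0.06) and Slc16a3 (0.46, SE 0.06).

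Other genes of the same pathways were described in the same way. Of 21 further glycolysis genes, 13 were tested, of which 6 rose and 3 fell in shCtrl and 3 rose and 5 fell in shAnxa2. Of 18 further lactate and pyruvate genes, 14 were tested, with 8 up and 2 down in shCtrl and 2 up and 9 down in shAnxa2. Of 8 further pentose phosphate genes, 6 were tested, with 1 up and 1 down in shCtrl and 0 up and 1 down in shAnxa2. Of 16 further glycogen genes, 12 were tested, with 6 up and 2 down in shCtrl and 2 up and 6 down in shAnxa2. These counts stand beside the 32.4% of all tested genes that rose and 31.0% that fell in shCtrl, and the 28.2% that rose and 26.8% that fell in shAnxa2, and nothing particular to the lists is read from them. The genes that changed at least 2-fold, picked by size from these same data, mostly had the directions of the glycolytic members. Nearly all genes called in both lines, 5165 of 5239, likewise had opposite signs. Nothing particular to these pathways is read from this. Epm2a, which encodes the glycogen phosphatase laforin, was at 0.861 ± 0.271 CPM untreated and 7.55 ± 0.39 CPM exposed in shCtrl, and at 7.90 ± 1.19 CPM untreated and 1.05 ± 0.27 CPM exposed in shAnxa2 (SD, n = 3). It rose by 3.11 (SE 0.20) and fell by 2.89 (SE 0.20). Pdk2, a second pyruvate dehydrogenase kinase, rose by 2.62 (SE 0.26) and fell by 1.46 (SE 0.29), from 7 to 24 counts per library in shCtrl-CTRL. Pck2, the mitochondrial enzyme that makes phosphoenolpyruvate, rose by 1.63 (SE 0.07) and fell by 0.94 (SE 0.07). Slc2a8 and Slc2a9, of the same gene family as Slc2a1, rose by 1.49 (SE 0.13) and 0.98 (SE 0.11) and fell by 1.06 (SE 0.13) and 0.87 (SE 0.12). Gyg, the glycogen primer, rose by 0.81 (SE 0.06) and fell by 0.59 (SE 0.06). Shpk, which phosphorylates sedoheptulose and so feeds the non-oxidative branch, rose by 1.05 (SE 0.12) and fell by 0.76 (SE 0.12). Phkg1, a phosphorylase kinase subunit with 1 to 27 counts per library, fell by 1.11 (SE 0.42, adjusted p = 0.0248) in shCtrl and gave 0.24 (SE 0.41) in shAnxa2, and its call was lost without shCtrl-CTRL replicate 1 (-1.01) or shCtrl-OGDR replicate 3 (-0.69). Eno1, the main enolase, is not a member and was looked at after its values had been seen. At 3169 ± 150 CPM in shCtrl-CTRL and 3579 ± 213 CPM in shCtrl-OGDR (SD, n = 3), it rose by 0.18 (SE 0.04), beside 1.38 for Eno2. In shAnxa2 Eno1 fell by 0.41 (SE 0.04, adjusted p = 3.44e-08), beside a fall of 0.86 for Eno2.

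The promoters of the 3 members with interactions farthest from 0 are shown because these genes moved in opposite directions, Gys1 and Eno2 with glycolysis and Slc16a1 against it. Each run is the 250 bases before the start of the gene in RefSeq on GRCm38.p6, read on the gene's strand 5′ to 3′, with capitals for ACGTG or GCGTG on either strand, the core of the hypoxia response element. They lie at chr7:45434589-45434838 (plus strand) for Gys1, chr6:124769674-124769923 (minus strand) for Eno2 and chr3:104638414-104638663 (plus strand) for Slc16a1.
Gys1: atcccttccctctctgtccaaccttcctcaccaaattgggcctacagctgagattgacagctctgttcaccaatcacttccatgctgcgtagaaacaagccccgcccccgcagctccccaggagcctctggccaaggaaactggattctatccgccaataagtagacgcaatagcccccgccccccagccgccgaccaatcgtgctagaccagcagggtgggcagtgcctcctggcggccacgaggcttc
Eno2: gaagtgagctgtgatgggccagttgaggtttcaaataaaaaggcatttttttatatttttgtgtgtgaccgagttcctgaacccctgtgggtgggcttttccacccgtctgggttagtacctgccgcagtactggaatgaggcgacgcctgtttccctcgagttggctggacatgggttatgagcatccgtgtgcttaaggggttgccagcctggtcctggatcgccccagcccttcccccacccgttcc
Slc16a1: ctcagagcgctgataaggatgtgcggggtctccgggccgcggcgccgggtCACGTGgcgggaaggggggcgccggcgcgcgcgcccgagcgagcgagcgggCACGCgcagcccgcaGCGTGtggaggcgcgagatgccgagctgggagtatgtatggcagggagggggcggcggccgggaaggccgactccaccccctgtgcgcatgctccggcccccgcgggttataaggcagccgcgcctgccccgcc
Gys1 and Eno2 held neither core in this window. Slc16a1 held CACGTG, whose palindrome contains ACGTG on both strands, and GCGTG once on each strand, in a window of 76.4% G and C, against 60.0% for Gys1 and 54.4% for Eno2. Of 36 members, 35 matched the promoter table, and the 33 tested members had 45 promoters. A core was present in 38.6% of all 32851 promoters, in 67.7% of the 31 promoters of members with an interaction below 0, in 75.0% of the 8 of members with one above 0, and in 100% of the 6 of members with no called interaction. The share holding a core was above that of all promoters in each class. All promoters include those of genes not tested here, and the share over tested genes alone was not computed. The classes are small, some genes have several promoters, and no test was made on these shares. CACGTG stood in 6.02% of all promoters, in 6.45% of the 31 of members with an interaction below 0 (2 promoters), in 2 of the 8 of members with one above 0 and in 0 of the 6 with no called interaction.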

How the data were processed

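RNA was taken from 12 BV2 libraries in 4 groups and sequenced after NEBNext Ultra library preparation. The authors deposited raw read counts per gene. The submitters' processing notes name HISAT2 2.0.4 and mm39, and the counting step for these cells is not given in the sources used here. A further 12 columns of normalized values in the same table were not used. Rows were compared by edgeR 4.0.16 (quasi-likelihood test, TMM scaling, 1 model over all 12 libraries) for genes with at least 0.5 CPM in at least 3 libraries, with Benjamini-Hochberg adjustment over all tested genes. A call needed an adjusted p under 0.05, and a stricter rule also 1.5-fold. The common biological coefficient of variation was 5.36%. Each SE was obtained from the log2 fold change and its F statistic (absolute change over the root of F). Exon lengths came from GENCODE vM21 on GRCm38, as the union of exons. Totals of 19521877 to 27288843 counts per library set the depth, and limits from counts of 0 cover counting error only. The study's methods describe 3 biological replicates per line, each made up of 3 technical replicates. The labels do not say how cultures were separated, so p-values measure the spread between these libraries, which may be technical.

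Members and gene lists were chosen with earlier results of these data known. Values in each library are given for all pentose phosphate members, the 10 other members with the largest interaction, members with no called interaction, and the isozyme sets Ldha and Ldhb, Hk1 to Hk3, Pfkl, Pfkm and Pfkp, Pfkfb3 and Pfkfb4, Slc2a1 and Slc2a3, Slc16a1 and Slc16a3, and Pgm1 and Pgm2, with untested members by their range of counts. Genes of the wider lists are named when changed at least 2-fold in a 2-group comparison, except 1 that is not reported here. A pair of cross-group comparisons were added after seeing the data. The model was tested on simulated data, in which 200 of 11480 genes were changed 2-fold in shCtrl-OGDR. It recovered 100% of them, with 17 false calls among 217, and made 0 calls in an unchanged comparison. Far fewer genes were changed there than were called in the real data. The changed genes were drawn only from those above a count floor, and every gene was given the same spread. Recovery of changes under 2-fold, as most member changes were, or of genes with few counts was not tested. Alternatives were DESeq2 size factors, library totals, other filters, DESeq2, limma voom, a replicate block, fits on the groups compared and leaving out each library.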

Additional observations from a re-analysis of the deposited data

Results flagged for a closer look

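Each member below was singled out because its response to OGD/R differed between shAnxa2 and shCtrl by the interaction test (log2 fold change in shAnxa2 minus that in shCtrl, edgeR adjusted p under 0.05). These were 27 of the 33 tested members, where 35.1% of all tested genes lay below 0 and 34.9% above 0. Below 0 were Gys1 (-2.26), Eno2 (-2.24), Aldoc (-1.72), Pgm1 (-1.72), Gbe1 (-1.38), Pfkm (-1.38), Pdk1 (-1.34), Pfkp (-1.28), Pgk1 (-1.14), Pgls (-1.13) and Hk1 (-0.88). The others below 0 were Aldoa (-0.86), Gapdh (-0.81), Ldha (-0.74), Tpi1 (-0.66), Pfkfb4 (-0.64), Pkm (-0.57), Pfkl (-0.40), Gpi1 (-0.39), Pgam1 (-0.24) and Hk3 (-0.23). Above 0 were G6pdx (0.18), Rpe (0.25), Pgd (0.62), Pfkfb3 (0.63), Rpia (1.05) and Slc16a1 (1.96). All 3 glycogen members among them were on the side of glycolysis, as was 1 of the 5 pentose phosphate members, Pgls. The direction of each value rests on the treatment given in the sample titles, and an exchange of treatment between the shAnxa2 groups was not tested.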

How the results depend on the processing

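Counts of members called stayed within 1.5 times under the other scalings, filters and tools, the fits on the groups compared and the replicate block (27 with the block in shCtrl on OGD/R, as without it). With the 1.5-fold rule, at an adjusted or an unadjusted p, the counts were 9 for OGD/R in shCtrl, 10 for OGD/R in shAnxa2, 10 between untreated lines and 11 between lines after OGD/R. The median of the pentose phosphate members on OGD/R in shAnxa2 was -0.023 with no filter, and their interaction median was 0.149 with library totals only. Leaving out each library in turn, the glycolytic median ran from 0.328 to 0.414 for OGD/R in shCtrl, from -0.36 to -0.287 for OGD/R in shAnxa2, from -0.335 to -0.256 between lines after OGD/R and from -0.724 to -0.625 for the interaction. The pentose phosphate median ran from -0.002 to 0.057 for OGD/R in shAnxa2 and from 0.145 to 0.224 for the interaction, so its sign in shAnxa2 was not stable. The causes were not tested. No called value changed sign, whereas 34 of 632 values uncalled in both settings did.

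Calls that single libraries decided are given beside each gene above, and those gained were Hk2 in 4 comparisons without shCtrl-CTRL replicate 1 (-0.16 for OGD/R in shCtrl, -0.21 between untreated lines, 0.27 for the interaction) or a shAnxa2-OGDR library (0.18 for OGD/R in shAnxa2 and 0.26 for the interaction without replicate 1, -0.14 between untreated lines without replicate 3), Slc16a3 for the interaction (0.20 without shCtrl-OGDR replicate 2 or shAnxa2-CTRL replicate 3), Slc2a1 after OGD/R (-0.24 without shCtrl-OGDR replicate 1, -0.20 without shAnxa2-OGDR replicate 3, but -0.016 without shCtrl-OGDR replicate 2), G6pdx for OGD/R in shAnxa2 (0.14 without shAnxa2-OGDR replicate 2), Pgm2 after OGD/R (0.14 without shAnxa2-OGDR replicate 3), and, between untreated lines, Gpi1 (-0.14 without shCtrl-CTRL replicate 1) and Rpe (-0.18 without replicate 2 of either group). Under the other alternatives 15 calls changed, all of Taldo1, Hk2, Pgd, G6pdx or Slc2a1. Same-numbered libraries of different groups correlated at -0.05 to 0.132, so the numbers were not taken to pair the samples, and the replicate block changed a call only for Hk2 (-0.13 between untreated lines, 0.178 for the interaction).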
